A study of Homo sapiens with 16 samples.

Results

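NRF2, the transcription factor encoded by NFE2L2, its inhibitor KEAP1 and 7 of the genes that NRF2 is known to activate were followed in A375 human melanoma cells and their catalase-transfected derivatives. The genes were taken by symbol from the annotation of the arrays, and NFE2L2, KEAP1, GCLC, GCLM, SLC7A11, HMOX1, NQO1, OSGIN1 and TALDO1 make up 9 of the 18417 genes that have a transcript cluster with 1 gene symbol. Each of the 9 had exactly 1 such cluster, and each lay above 5.23 in the mean of every group, the level that 95% of the group means of olfactory receptor clusters, taken as unexpressed, did not exceed. Their transcripts were measured in total RNA on the Affymetrix platform Human Gene 1.0 ST, and all values are log2 intensities, so that a difference of 1 is a 2-fold change.

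The groups were A375 cells, which were not transfected, PCDNA3 cells, which are A375 cells carrying the empty pcDNA3 vector, and A7 and G10, which are derivatives of A375 carrying human catalase cDNA in the same vector. Each group had 4 arrays, stated to be biological replicates. Transfected cells were selected in 1500 µg/ml geneticin and kept in 700 µg/ml, an exposure that A375 cells did not have. A7 and G10 were each obtained by clonal dilution and are 1 clone each, so that a property of a clone and a property of catalase transfection cannot be told apart.

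NRF2 is held in the cytoplasm by KEAP1, which directs it to degradation. Oxidants and electrophiles modify KEAP1, NRF2 then reaches the nucleus, pairs with small MAF proteins and binds the antioxidant response element of genes for glutathione synthesis, quinone reduction, heme breakdown and supply of NADPH. Because the control acts largely on the NRF2 protein, the transcripts of the target genes are commonly read as its output, while protein levels were not analysed here.

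To show what such a control region looks like, the 250 bases before the annotated start are given for the pair of targets whose windows held a searched motif, from RefSeq on GRCh38.p14, 5′ to 3′ on the strand of the gene, with the match in capitals. The window of GCLM is chr1:93909431-93909680 on the minus strand, and its match to the antioxidant response element core (TGACNNNGC) is on the opposite strand from -34 to -26, counted in bases from the start. That of OSGIN1 is chr16:83952990-83953239 on the plus strand, and its match to the AP-1 site (TGAGTCA), a motif close to that element, is on the opposite strand from -97 to -91.
GCLM: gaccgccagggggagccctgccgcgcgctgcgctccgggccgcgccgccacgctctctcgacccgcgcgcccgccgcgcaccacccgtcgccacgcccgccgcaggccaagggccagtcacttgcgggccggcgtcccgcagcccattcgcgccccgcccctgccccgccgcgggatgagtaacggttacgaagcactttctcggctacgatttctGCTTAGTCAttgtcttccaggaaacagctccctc
OSGIN1: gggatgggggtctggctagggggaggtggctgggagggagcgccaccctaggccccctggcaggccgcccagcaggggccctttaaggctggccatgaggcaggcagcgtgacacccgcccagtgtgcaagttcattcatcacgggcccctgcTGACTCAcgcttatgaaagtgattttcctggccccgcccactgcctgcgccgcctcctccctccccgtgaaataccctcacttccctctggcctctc
Of 35116 promoter windows, from 250 bases before to 50 after a start and searched on both strands, 13.3% held the antioxidant response element core and 4.95% held the AP-1 site. Promoter windows were found for 7 of the 9 genes, in 9 windows, of which 2 held the core, the other being one of KEAP1. Matches of the different motifs did not overlap. HMOX1 and SLC7A11 had no window. A match is a description of letters and does not show binding.

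Array medians lay between 5.85 and 5.97, and 9 of 11 measured melanocyte markers exceeded the level of olfactory receptors in A375 cells and 11 of 11 in the other groups. Of the other cell types checked, 2 of 6 keratinocyte, 1 of 4 blood and 1 of 4 endothelial markers exceeded it, with the same counts in every group. CAT, which encodes the transfected catalase, had values of 8.64, 9.03, 8.65 and 8.62 in A375 cells, 8.51, 8.51, 8.53 and 8.71 in PCDNA3 cells, 9.02, 8.92, 9.12 and 9.02 in A7, and 8.51, 8.55, 7.74 and 8.27 in G10. CAT was thus not higher in the arrays labelled G10, where it lay 0.47 log2 units below A375 cells (adjusted p = 0.0480, limma) and 0.30 below PCDNA3 cells (adjusted p = 0.226, limma), and in A7 it did not pass the test against either line (changes 0.29 and 0.46, adjusted p = 0.368 and 0.107, limma). Whether the probes of this cluster lie within the transfected cDNA is not given in the sources used here, and "G10" below means the arrays labelled so. Over all clusters the arrays of both clones fell into pairs. In G10 r was 0.9941 between replicates 1 and 2, 0.9918 between replicates 3 and 4, and from 0.9844 to 0.9871 across the pairs, and in A7 it was 0.9940, 0.9949 and from 0.9875 to 0.9926. Within A375 and within PCDNA3 cells r ran from 0.9900 to 0.9928. Replicates 1 and 2 did not overlap with replicates 3 and 4 in 59.7% of clusters in A7 and 51.9% in G10, beside 38.6% in A375 and 32.6% in PCDNA3 cells. Calls of the 9 NRF2 genes in the clones are therefore given with and without each pair, an alternative chosen after the data were seen. Changes of the other named genes rest on all 4 arrays of a clone and were not refitted by pair.

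The comparisons asked whether the NRF2 genes differed in each catalase-transfected clone from each control line, and whether the control lines differed from each other. HMOX1, GCLM and OSGIN1 fell in A7 and in G10 vs PCDNA3, and SLC7A11 also fell in G10 vs PCDNA3. Against A375 cells none of these 4 genes passed the test in either clone, and TALDO1 in G10 was the only one of the 9 that did. The PCDNA3 arrays of HMOX1, GCLM and OSGIN1 all lay above the A375 arrays. NFE2L2, KEAP1, NQO1 and GCLC passed the test in none of the 8 comparisons.

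Counted over the 9 genes, 0 were called in A7 vs A375 by limma, where 4.17% of all clusters were called. GCLC and OSGIN1 had an unadjusted p under 0.05, a looser limit for which the share of all clusters was not counted. In A7 vs PCDNA3 3 were lower and 0 higher, with 1.71% of clusters called lower. In G10 vs A375 1 was lower and 0 higher, with 6.21% of clusters called lower, and in G10 vs PCDNA3 4 were lower and 0 higher, with 7.01% called lower. In G10 vs A7 only TALDO1 was called, with 7.38% of clusters called lower. The median change of the 9 genes was -0.12 and -0.37 in A7 vs A375 and vs PCDNA3, beside -0.01 and -0.02 over all clusters. In G10 it was -0.10 and -0.46, beside -0.03 and -0.04. Comparisons that use the same arrays are not independent of each other.

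By array, 4 of the 9 genes had every A7 array below every PCDNA3 array (6.34% of clusters) and 5 had every G10 array below every PCDNA3 array (7.96% of clusters). Against A375 cells, GCLC had every A7 array higher (7.92% of clusters) and TALDO1 every G10 array lower (8.27% of clusters). TALDO1 was also the gene with every G10 array below every A7 array (8.48% of clusters). With bulk RNA, fewer cells expressing a gene and less RNA per cell cannot be told apart.

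**Figure D1:**
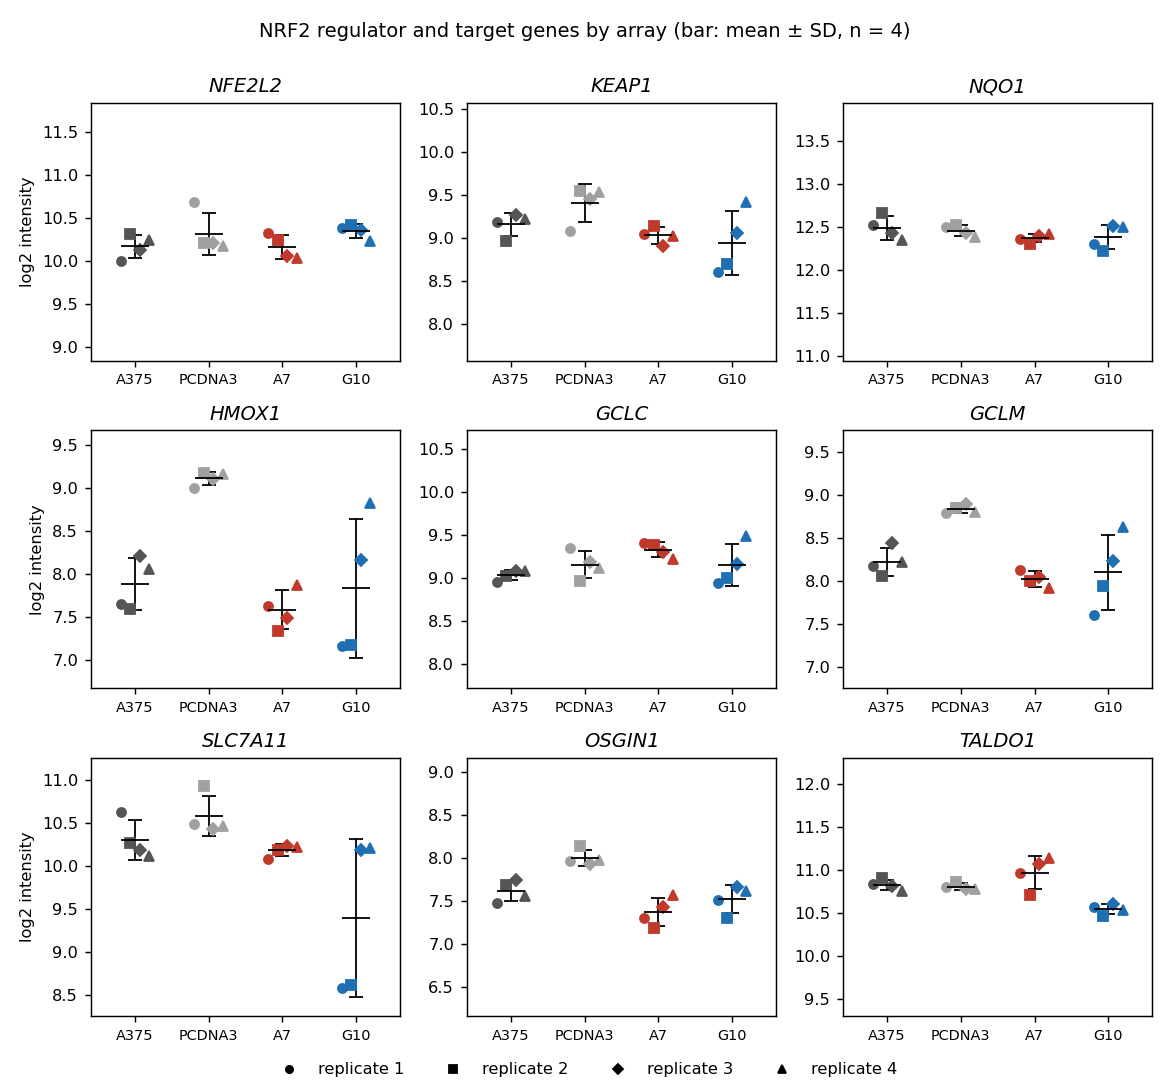
Log2 intensity (vertical axis, spanning 3 units in every panel) of each gene in the 4 arrays of A375, PCDNA3, A7 and G10 (horizontal axis). Points are arrays, their shape gives the replicate number, and bars give the mean ± SD (n = 4); the PCDNA3 arrays of HMOX1 lie between 9.0 and 9.17, and the SLC7A11 arrays of G10 lie near 8.6 for replicates 1 and 2 and near 10.2 for replicates 3 and 4.

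Among the regulators, NFE2L2 averaged 10.17 ± 0.14 (SD, n = 4) in A375, 10.32 ± 0.24 in PCDNA3 cells, 10.17 ± 0.14 in A7 and 10.35 ± 0.08 in G10. The group means of NFE2L2 spanned 0.18 log2 units, and neighbours in their order (G10, PCDNA3, A375, A7) overlapped. In A7 the change of NFE2L2 was -0.0039 vs A375 (95% interval -0.25 to 0.24) and -0.15 vs PCDNA3 (-0.40 to 0.10). In G10 it was 0.18 vs A375 (-0.07 to 0.42) and 0.03 vs PCDNA3 (-0.22 to 0.28). The intervals leave room for changes of about 0.4 log2 units at most in either direction.

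KEAP1, the adaptor that presents NRF2 for ubiquitination, had values of 9.19, 8.97, 9.27 and 9.23 in A375 cells and 9.08, 9.55, 9.46 and 9.54 in PCDNA3 cells. In A7 its values were 9.05, 9.15, 8.91 and 9.03, and in G10 they were 8.61, 8.70, 9.06 and 9.42. The PCDNA3 arrays were high but for replicate 1, and the G10 arrays spread over 0.82 log2 units with replicates 1 and 2 lowest. KEAP1 did not pass the test in any comparison in limma, with changes of -0.37 (adjusted p = 0.230) in A7 and -0.46 (adjusted p = 0.0580) in G10 vs PCDNA3. Without PCDNA3 replicate 1 the change in G10 vs PCDNA3 was -0.57 (adjusted p = 0.0245, limma). Without G10 replicate 4 it was -0.62 (adjusted p = 0.00491, limma), in a range from 0.000851 to 0.577 over its alternatives. With all arrays, KEAP1 passed there with only clusters of 1 symbol (adjusted p = 0.0328, limma) or only clusters above the olfactory level (0.0357). It also passed with quantile normalization (adjusted p = 0.0431, limma), limma-trend (0.0498) or array weights (0.00263).

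Of the glutathione genes, GCLM, the modifier subunit of glutamate-cysteine ligase, had values of 8.18, 8.06, 8.45 and 8.22 in A375 cells and 8.80, 8.85, 8.90 and 8.81 in PCDNA3 cells. Its values were 8.14, 8.0, 8.05 and 7.92 in A7 and 7.61, 7.95, 8.24 and 8.63 in G10. Every PCDNA3 array lay above every array of the other groups, and the A375, A7 and G10 arrays overlapped. GCLM fell by 0.81 log2 units in A7 vs PCDNA3 (standard error 0.16, adjusted p = 0.00659, limma), 1.75-fold, and by 0.73 in G10 vs PCDNA3 (standard error 0.16, adjusted p = 0.00464, limma). Against A375 cells the change was -0.20 in A7 (95% interval -0.54 to 0.14) and -0.12 in G10 (-0.46 to 0.22).

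GCLC, the catalytic subunit of the same enzyme, did not follow that order. Its values were 8.96, 9.02, 9.09 and 9.09 in A375 cells, 9.35, 8.97, 9.18 and 9.12 in PCDNA3 cells, 9.41, 9.39, 9.31 and 9.22 in A7, and 8.95, 9.0, 9.17 and 9.49 in G10. The A7 arrays lay above all A375 arrays and overlapped those of PCDNA3 and G10. The change of GCLC in A7 was 0.29 vs A375 (standard error 0.11, adjusted p = 0.191, limma) and 0.17 vs PCDNA3 (standard error 0.11, adjusted p = 0.498, limma), and neither passed the test.

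SLC7A11, the cystine transporter subunit that supplies cysteine for glutathione, had values of 10.64, 10.28, 10.19 and 10.12 in A375 cells and 10.49, 10.93, 10.43 and 10.47 in PCDNA3 cells. Its values were 10.09, 10.19, 10.24 and 10.23 in A7, and 8.59, 8.62, 10.18 and 10.21 in G10. Replicates 1 and 2 of G10 lay far below all other arrays, while replicates 3 and 4 lay among the A375 and A7 arrays. SLC7A11 fell by 1.18 log2 units in G10 vs PCDNA3 (standard error 0.31, adjusted p = 0.0157, limma), and its change vs A375 was -0.91 (standard error 0.31, adjusted p = 0.0641, limma). The call vs PCDNA3 was lost without PCDNA3 replicate 2 (-1.06, adjusted p = 0.0523, limma), without G10 replicate 1 (-0.91, adjusted p = 0.0537) or without G10 replicate 2 (-0.92, adjusted p = 0.0574), in a range from 1.15e-06 to 0.144 over its alternatives. It was also lost with only the arrays compared (adjusted p = 0.0954, limma). Vs A375 a call was gained without G10 replicate 3 (-1.17, adjusted p = 0.0148, limma) or 4 (-1.18, adjusted p = 0.0135), in a range from 6.28e-06 to 0.729. With all arrays it was gained with only clusters of 1 symbol (adjusted p = 0.0341, limma), only clusters above the olfactory level (0.0399) or array weights (0.00187). In A7 the change of SLC7A11 was -0.12 vs A375 (95% interval -0.78 to 0.54) and -0.40 vs PCDNA3 (-1.05 to 0.26).

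HMOX1, heme oxygenase 1, breaks heme down to biliverdin, iron and carbon monoxide. Its values were 7.65, 7.59, 8.21 and 8.05 in A375 cells and 9.0, 9.17, 9.10 and 9.16 in PCDNA3 cells. They were 7.63, 7.33, 7.48 and 7.87 in A7, and 7.16, 7.17, 8.16 and 8.82 in G10. The PCDNA3 arrays were close together and above all 12 other arrays, the A7 arrays overlapped those of A375, and G10 spread from below to above both. HMOX1 was 2.88-fold lower in A7 vs PCDNA3 (95% interval of the log2 change -2.13 to -0.92, adjusted p = 0.00469, limma), a change exceeded in size by 0.258% of clusters. In G10 HMOX1 fell by 1.28 log2 units vs PCDNA3 (standard error 0.28, adjusted p = 0.00542, limma), and its change vs A375 was -0.05 (95% interval -0.65 to 0.56).

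NQO1, the quinone reductase often used as a readout of NRF2, varied little. Its lowest and highest arrays were 12.34 and 12.66 in A375 cells, 12.38 and 12.51 in PCDNA3 cells, 12.30 and 12.41 in A7, and 12.22 and 12.50 in G10. All groups overlapped, and the group means spanned 0.12 log2 units. The change of NQO1 vs PCDNA3 was -0.09 in A7 (95% interval -0.28 to 0.10) and -0.07 in G10 (-0.26 to 0.11), and vs A375 it was -0.12 in A7 (-0.31 to 0.07) and -0.10 in G10 (-0.29 to 0.08).

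OSGIN1, an oxidative stress-induced growth inhibitor, had values of 7.47, 7.68, 7.74 and 7.56 in A375 cells and 7.96, 8.13, 7.92 and 7.97 in PCDNA3 cells. In A7 its values were 7.30, 7.18, 7.42 and 7.56, and in G10 they were 7.51, 7.30, 7.66 and 7.62. The PCDNA3 arrays again lay above all others, which overlapped. OSGIN1 fell by 0.63 log2 units in A7 vs PCDNA3 (standard error 0.10, adjusted p = 0.00191, limma) and by 0.47 in G10 vs PCDNA3 (standard error 0.10, adjusted p = 0.00486, limma). Vs A375 the change was -0.25 in A7 (adjusted p = 0.234, limma) and -0.09 in G10 (adjusted p = 0.668, limma).

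TALDO1, the transaldolase of the pentose phosphate pathway, had values of 10.84, 10.91, 10.81 and 10.76 in A375 cells and 10.81, 10.86, 10.78 and 10.79 in PCDNA3 cells. Its values were 10.97, 10.71, 11.07 and 11.14 in A7, and 10.57, 10.47, 10.60 and 10.54 in G10. All 4 G10 arrays lay below every other array, with no split into pairs. TALDO1 fell by 0.43 log2 units in G10 vs A7 (standard error 0.09, adjusted p = 0.00288, limma), a call kept when any array was left out. TALDO1 fell by 0.28 in G10 vs A375 (standard error 0.09, adjusted p = 0.0398, limma), and its change vs PCDNA3 was -0.27 (standard error 0.09, adjusted p = 0.0522, limma). By size, 15.5% of clusters had a larger change than TALDO1 in G10 vs A7 and 27.1% in G10 vs A375. The call vs A375 was lost on leaving out any array of A375, replicate 4 of PCDNA3, replicate 1 of A7, or replicate 1, 2 or 4 of G10, with changes from -0.31 to -0.26 and adjusted p up to 0.104. That vs PCDNA3 was gained without A7 replicate 2 (adjusted p = 0.0176) or 4 (adjusted p = 0.0436), at the same change of -0.27. It was also gained with only clusters of 1 symbol (adjusted p = 0.0392, limma), only clusters above the olfactory level (0.0325), limma-trend (0.0295) or array weights (0.0211), in a range from 0.0176 to 0.210 over its alternatives.

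**Figure D2:**
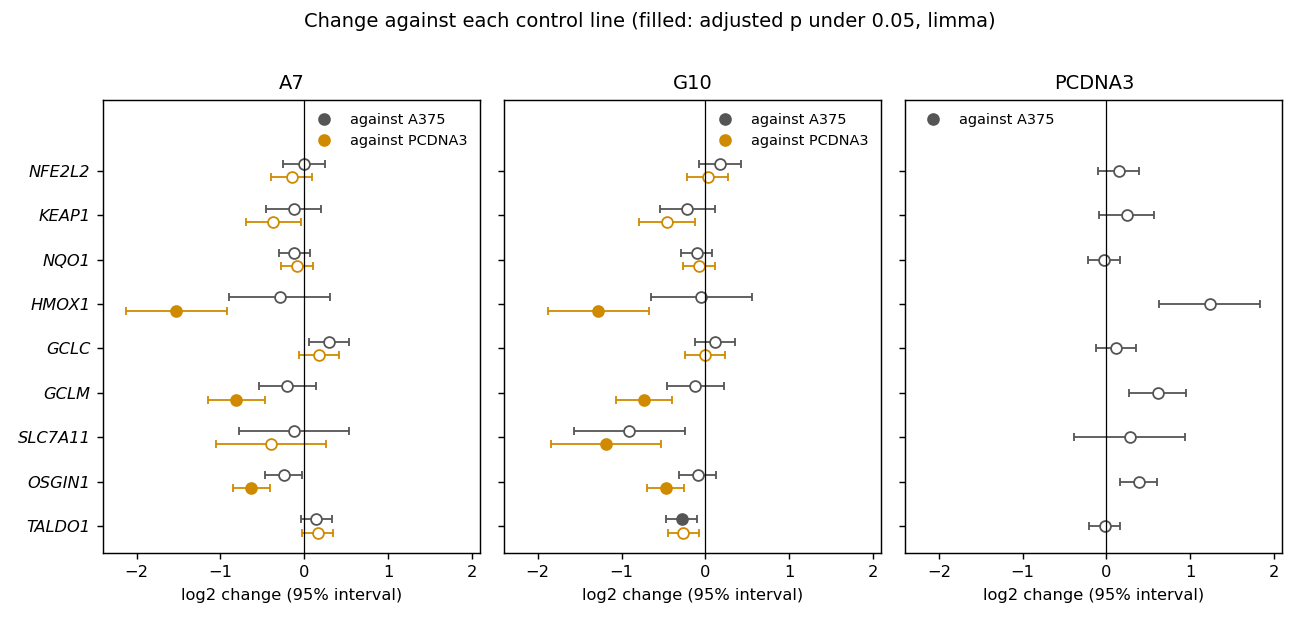
Log2 change (horizontal axis) of each gene (vertical axis) in A7 and G10 against A375 and against PCDNA3, and in PCDNA3 against A375. Points are limma estimates from 4 arrays per group, bars are 95% intervals and filled points passed an adjusted p of 0.05; HMOX1 in A7 stands at -1.53 against PCDNA3 and at -0.30 against A375.

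Against the average of A375 and PCDNA3, the control used in the study, 3 of the 9 genes were called lower in A7, where 2.23% of clusters were called lower. They were HMOX1, GCLM, with a change of -0.51 (adjusted p = 0.0411, limma), and OSGIN1, with -0.44 (adjusted p = 0.00754, limma). In G10 4 were called lower, where 7.90% of clusters were, namely GCLM (-0.43), SLC7A11 (-1.04), OSGIN1 (-0.28) and TALDO1 (-0.27). With 1 array left out, HMOX1 in A7 was called in 6 of 16 fits and GCLM in 5, while OSGIN1 was called in all 16. Leaving out any array of PCDNA3 or A7, or A375 replicate 3 or 4, ended both calls, and leaving out A375 replicate 1 ended that of GCLM, with changes from -1.01 to -0.83 for HMOX1 and from -0.54 to -0.47 for GCLM over the 16 fits. In G10 the calls held in 3 of 16 fits for GCLM, 14 for SLC7A11, 9 for OSGIN1 and 15 for TALDO1, and TALDO1 was lost at -0.25 without G10 replicate 2. Leaving out G10 replicate 1 or 2 ended the calls of GCLM, SLC7A11 and OSGIN1, whose changes over the 16 fits ran from -0.60 to -0.26, from -1.31 to -0.77 and from -0.33 to -0.21. GCLM was also lost without A375 replicate 1, 3 or 4 or any array of PCDNA3 or A7. OSGIN1 was also lost without A375 replicate 2, 3 or 4 or PCDNA3 replicate 2 or 4. Without A7 replicates 1 and 2 no call in A7 was kept, with OSGIN1 at -0.31 (adjusted p = 0.190, limma). Without A7 replicates 3 and 4 only that of OSGIN1 was kept. Without G10 replicates 1 and 2 no call in G10 was kept, with SLC7A11 at -0.25 (adjusted p = 0.306, limma) and TALDO1 at -0.25 (0.124). Without G10 replicates 3 and 4 the calls in G10 were kept, and HMOX1 and KEAP1 gained one.

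The control lines were then compared with each other. In PCDNA3 vs A375, 0 of the 9 genes were called by limma, where 0.123% of all clusters were called. At an unadjusted p under 0.05, a looser limit for which the share of all clusters was not counted, 3 passed. These were HMOX1 with a change of 1.23 (95% interval 0.63 to 1.84, adjusted p = 0.0856), GCLM with 0.61 (0.27 to 0.95, adjusted p = 0.116) and OSGIN1 with 0.38 (0.16 to 0.60, adjusted p = 0.129). All 3 had every PCDNA3 array above every A375 array, as had 6.26% of clusters. By size, 0.123% of clusters had a larger change than HMOX1 and 2.26% a larger one than GCLM. HMOX1 passed without G10 replicate 4 (adjusted p = 0.0281, range 0.0136 to 0.205 over its alternatives), as did GCLM (adjusted p = 0.0485, range 0.0296 to 0.276). In a fit of the 8 arrays of these lines alone the adjusted p was 0.0136 for HMOX1 and 0.0300 for GCLM (limma). HMOX1 also passed when only clusters of 1 symbol were tested (adjusted p = 0.0374, limma), and with array weights HMOX1, GCLM and OSGIN1 all passed (adjusted p = 0.0176, 0.0296 and 0.0477, the last in a range up to 0.306). The changes of NFE2L2 (0.15), NQO1 (-0.03) and TALDO1 (-0.02) between the lines had intervals that included 0.

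**Figure D3:**
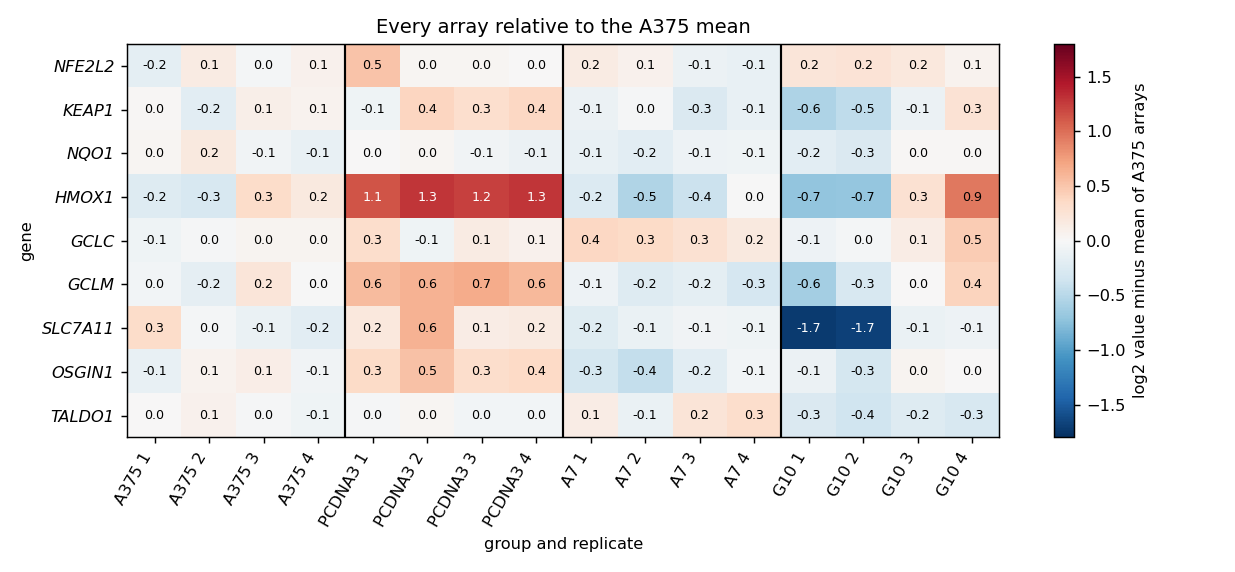
Log2 value of each gene (vertical axis) in each of the 16 arrays (horizontal axis, group and replicate) minus the mean of the A375 arrays, with the difference printed in each cell. The PCDNA3 columns are raised for HMOX1, GCLM and OSGIN1, and G10 replicates 1 and 2 differ from replicates 3 and 4 for SLC7A11 and HMOX1.

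Within G10, the 9 genes differed in how far they followed the split of the arrays. SLC7A11 had the widest gap, with the lower of replicates 3 and 4 standing 1.56 log2 units above the higher of replicates 1 and 2, and 0.234% of clusters had a larger gap in either direction. For HMOX1 the gap was 0.98, exceeded by 1.36% of clusters, for KEAP1 0.36 and for GCLM 0.29. In 7 of the 9 genes both of replicates 3 and 4 lay above both of replicates 1 and 2, beside 25.8% of clusters, in NFE2L2 they lay below, and in TALDO1 they overlapped. In A7 4 of the 9 genes had replicates 3 and 4 above and 3 below, beside 30.2% and 29.5% of clusters. In A375 cells 4 were above, HMOX1 among them, and 3 below, beside 20.6% and 18.0% of clusters. In PCDNA3 cells 0 were above and 4 below, beside 14.9% and 17.7% of clusters. Among 53 other NRF2 target genes 16 were above and 18 below in G10, beside 25.8% and 26.2% of clusters. SRXN1, sulfiredoxin, with 8.88, 8.87, 9.62 and 9.48 in G10, and TXNRD1, thioredoxin reductase 1, with 11.30, 11.37, 11.76 and 11.80, were above, and ME1, malic enzyme 1, was below by 0.88, all named after their values were seen.

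Without G10 replicates 1 and 2, 0 of the 9 genes were called in G10 vs A375 or vs PCDNA3 in limma, where 15.1% and 10.8% of clusters were called in either direction. HMOX1 in G10 vs PCDNA3 was then -0.62 (adjusted p = 0.0734, limma, range 3.6e-06 to 0.0734 over its alternatives), and GCLM was -0.40 (adjusted p = 0.0559, range 2.17e-05 to 0.0559). OSGIN1 was -0.36 (adjusted p = 0.0679, range 0.00109 to 0.0679) and SLC7A11 was -0.38 (adjusted p = 0.144, range as above). Against A7 the remaining G10 arrays were higher in HMOX1 by 0.91 (adjusted p = 0.00778, limma, range 0.00778 to 0.894) and in GCLM by 0.41 (adjusted p = 0.0399, range 0.0399 to 0.947), and TALDO1 was lower by 0.40 (adjusted p = 0.0227), with 15.3% of clusters called. Without replicates 3 and 4 instead, 4 of the 9 genes were called lower in G10 vs A375, with 8.04% of clusters called lower, namely SLC7A11 (-1.70), HMOX1 (-0.71), KEAP1 (-0.51) and GCLM (-0.45). In G10 vs PCDNA3 5 were then called lower, with 10.9% of clusters, namely SLC7A11 (-1.98), HMOX1 (-1.94), GCLM (-1.06), KEAP1 (-0.75) and OSGIN1 (-0.59). In G10 vs A7 3 were lower, with 9.94% of clusters, namely SLC7A11 (-1.58), TALDO1 (-0.45) and GCLC (-0.36). Vs A375, these changes without replicates 1 and 2 were 0.61 for HMOX1 (adjusted p = 0.0620, limma), 0.21 for GCLM, 0.08 for KEAP1 and -0.11 for SLC7A11. The changes of HMOX1, SLC7A11, GCLM and KEAP1 in G10 thus rest on which arrays enter. The calls of OSGIN1 vs PCDNA3 and of GCLC vs A7 do so too. What separates the pairs was not tested.

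The pairs of A7 were left out in the same way. In A7 vs PCDNA3 1 of the 9 genes, OSGIN1, was called lower without A7 replicates 1 and 2, with 0.874% of clusters called lower, and 2, HMOX1 and OSGIN1, without replicates 3 and 4, with 0.994%. The change of HMOX1 was -1.43 (adjusted p = 0.0696, limma) and -1.63 (adjusted p = 0.0272), in a range from 0.00018 to 0.0696 over its alternatives. That of GCLM was -0.85 (adjusted p = 0.0552, limma) and -0.77 (adjusted p = 0.0605), in a range from 0.000725 to 0.0605, and that of OSGIN1 was -0.50 (adjusted p = 0.0492) and -0.76 (adjusted p = 0.00304), in a range from 0.000726 to 0.0492. With all 4 arrays these changes were -1.53, -0.81 and -0.63.

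By the root mean square difference over 16 arrays, each gene centred on its own mean, the genes most like HMOX1 were SLC12A8 (0.30), MGLL (0.31) and GCLM (0.36), beside a root mean square of 0.71 of HMOX1 around its mean. Those most like GCLM were ING3 (0.12), GLDC (0.16) and CENPE (0.17), beside 0.38 for GCLM itself. Those most like SLC7A11 were FIGNL1 (0.20), CKAP2L (0.22) and H2BC9 (0.24), beside 0.61. GCLM, itself a target of NRF2, was the member of the 9 that came closest to HMOX1.

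The other genes of the pathway were read from lists drawn from general knowledge, and their counts stand beside the shares of all clusters that limma called. Some genes stand on more than 1 list, so the counts of the lists are not independent. With each gene counted once, 136 were measured. Of these, 13 were higher and 17 lower in G10 vs A375, and 16 and 19 in G10 vs PCDNA3. Higher and lower were 2.47% and 1.69% of clusters in A7 vs A375, 3.01% and 1.71% in A7 vs PCDNA3, 8.02% and 6.21% in G10 vs A375, and 8.44% and 7.01% in G10 vs PCDNA3. Of 27 other NRF2 regulators measured, 1 was higher and 0 lower in A7 vs A375, 0 and 2 in A7 vs PCDNA3, 5 and 1 in G10 vs A375, and 4 and 4 in G10 vs PCDNA3. BACH1, a repressor that competes with NRF2 at its sites in HMOX1, rose in G10 by 0.52 vs A375 (adjusted p = 0.00474, limma) and by 0.41 vs PCDNA3 (adjusted p = 0.0207). In A7 BACH1 fell by 0.41 vs PCDNA3 (adjusted p = 0.0491, limma), and its change vs A375 was -0.30 (adjusted p = 0.180). CDKN1A, the cell cycle inhibitor p21, which binds NRF2, rose in G10 by 1.06 and 0.93 (adjusted p = 0.00092 and 0.00229, limma). BTRC, a ubiquitin ligase subunit that can direct NRF2 to degradation, rose by 0.67 and 0.70 (adjusted p = 0.000162 and 0.00011). SQSTM1, an autophagy adaptor that binds KEAP1, was the gene of this list that passed in PCDNA3 vs A375, with a rise of 0.54 (adjusted p = 0.0198, limma), and was named after its values were seen.

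Of 53 other NRF2 targets measured, 3 were higher and 3 lower in A7 vs A375, 2 and 1 in A7 vs PCDNA3, 7 and 10 in G10 vs A375, and 9 and 7 in G10 vs PCDNA3. The median change of this list lay between -0.05 and 0.03 in these comparisons, near that of all clusters. The list does not separate genes that NRF2 activates from genes that it represses. A rise or fall of a listed gene is therefore not read as more or less NRF2 activity. TXNIP, an inhibitor of thioredoxin, rose in G10 by 1.22 vs A375 and 2.06 vs PCDNA3 (adjusted p = 0.00256 and 2.83e-05, limma), and GSTM1, a glutathione transferase, by 1.05 and 1.06 (adjusted p = 0.000722 and 0.000595). CD36, a scavenger receptor, fell in G10 by 1.64 and 1.31 (adjusted p = 0.000568 and 0.00304, limma). The G10 mean of CD36, 4.72, lies below the olfactory level of 5.23, so the sizes of these falls are uncertain. The pairs of G10 arrays did not overlap in CD36, with a gap of 0.86 between them. MGST2, a microsomal glutathione transferase, rose in A7 by 0.55 and 0.42 (adjusted p = 0.00314 and 0.0200, limma).

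**Figure D4:**
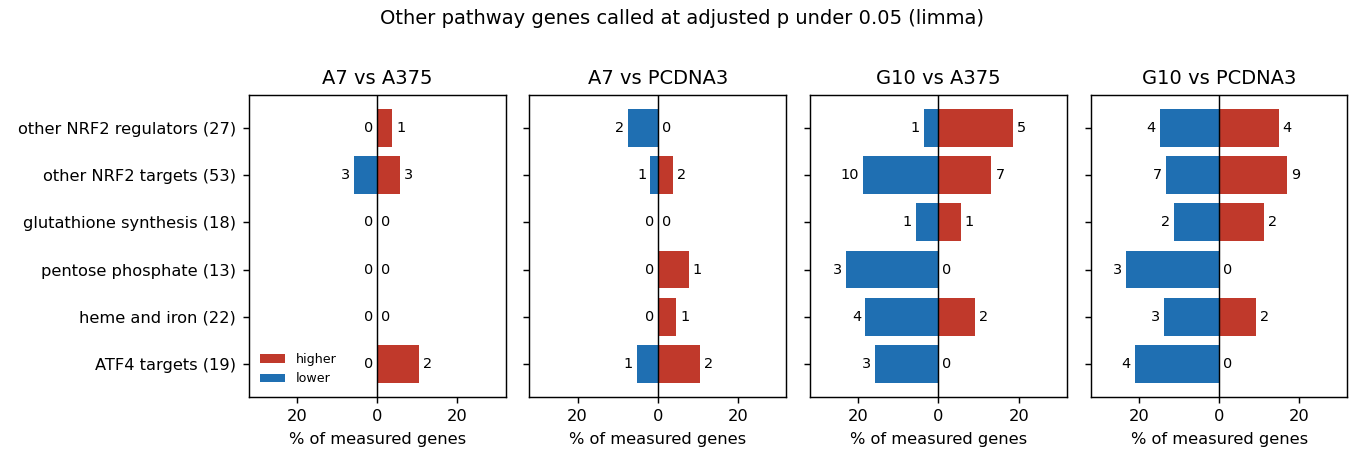
Share of the measured genes of each list (horizontal axis, percent) called higher (right) or lower (left) at an adjusted p under 0.05 in limma, with the count beside each bar and the number measured in parentheses. The pentose phosphate list has 3 genes lower and 0 higher in G10 against each control line. Against PCDNA3 these include TKTL1, whose G10 mean lies below the olfactory level.

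In the pentose phosphate pathway, to which TALDO1 belongs, 3 of 13 other genes were lower and 0 higher in G10 vs A375, and 3 were lower and 0 higher vs PCDNA3, beside the 6.21% and 7.01% of clusters called lower. The 3 genes were not the same, with PGD and PGM2 lower vs both lines. PGD, phosphogluconate dehydrogenase, fell by 0.50 and 0.34 (adjusted p = 0.00288 and 0.0286, limma), and PGM2, a phosphopentomutase, by 0.35 and 0.44 (adjusted p = 0.00963 and 0.00193). PGM1, phosphoglucomutase, fell vs A375 (-0.51, adjusted p = 0.0238, limma) and TKTL1, a transketolase-like protein, vs PCDNA3 (-0.44, adjusted p = 0.0133), both named after their values were seen. In A7, 0 were called vs A375 and 1 was higher vs PCDNA3. Of 18 other glutathione synthesis genes, 0 were called in A7 vs either line by limma, and 1 was higher and 1 lower in G10 vs A375 and 2 and 2 vs PCDNA3. SLC1A4, a neutral amino acid transporter, rose in G10 by 0.99 and 0.82 (adjusted p = 3.81e-05 and 0.000201, limma). GSS, glutathione synthetase, fell in G10 vs A375 (-0.28, adjusted p = 0.0259, limma), and CHAC1, which degrades glutathione, and SLC1A5, a glutamine transporter, fell vs PCDNA3 (-0.86 and -0.60, adjusted p = 0.0250 and 0.0267), all named after their values were seen. Of 22 heme and iron genes, 2 were higher in G10 vs each line, while 4 were lower vs A375 and 3 vs PCDNA3. FECH, ferrochelatase, the enzyme that inserts iron into heme, rose by 0.70 and 0.84 (adjusted p = 0.00053 and 9.71e-05, limma), and the heme transporter SLC48A1 fell by 0.57 and 0.35 (adjusted p = 0.000691 and 0.0191). The iron transporter SLC11A2 rose by 0.61 and 0.80 (adjusted p = 0.00416 and 0.000494, limma).

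SLC7A11 is also a target of ATF4, the factor of the amino acid response, and 19 ATF4 targets were listed for that reason. In G10, 0 were higher and 3 lower vs A375, and 0 and 4 vs PCDNA3, and in A7 2 were higher and 0 lower vs A375, and 2 and 1 vs PCDNA3. In G10 ALDH1L2, a mitochondrial folate enzyme, fell by 2.23 and 1.72 vs A375 and PCDNA3 (adjusted p = 9.2e-06 and 0.00011, limma). PHGDH, which opens serine synthesis, fell in G10 by 0.92 and 0.70 (adjusted p = 8.67e-06 and 0.000114, limma). In G10, replicates 3 and 4 were above 1 and 2 in 9 of these 19 genes (25.8% of clusters) and below in 4 (26.2%). Above were SLC3A2, the partner chain of SLC7A11, with 10.14, 10.11, 10.66 and 10.70, and TRIB3, a pseudokinase, with 7.30, 7.32, 7.88 and 7.89. SLC3A2 and TRIB3 were named after their values were seen. Among those below was ALDH1L2, with 5.79, 5.95, 5.32 and 4.96, while PHGDH, with 10.03, 10.08, 9.87 and 10.08, overlapped. NUPR1, a stress-induced nuclear protein, rose in A7 by 1.31 and 0.91 (adjusted p = 0.00167 and 0.0215, limma). Against 1 line each, the amino acid transporter SLC7A5 rose in A7 vs A375 (0.63, adjusted p = 0.00105, limma). In A7 vs PCDNA3 the lipoprotein receptor VLDLR rose (0.84, adjusted p = 0.00288, limma) and ASNS, asparagine synthetase, fell (-0.47, adjusted p = 0.00849). SLC7A5, VLDLR and ASNS were named after their values were seen. VLDLR was itself lower in PCDNA3 vs A375 (-1.12, adjusted p = 0.0111, limma), and its change in A7 vs A375 was -0.28 (adjusted p = 0.355). VLDLR also fell in G10 vs A375 (-1.21, adjusted p = 3.83e-05, limma). ATF4 itself had means of 10.39, 10.39, 10.40 and 10.39 in A375, PCDNA3, A7 and G10.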

How the data were processed

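The authors hybridized total RNA of 16 samples to Affymetrix Human Gene 1.0 ST arrays, corrected background, normalized and summarized by RMA, and deposited log2 intensities of 33297 transcript clusters. Their package versions are not given in these sources, and probe intensities were not used here. Array annotation gave 1 gene symbol to 19460 clusters, several to 1754 and none to 12083; genes were named from the first kind, with the highest mean where a gene had more than 1. In R 4.3.3, limma 3.58.1 (lmFit, eBayes) was fitted to all clusters with a mean for each group. The 8 comparisons were adjusted separately by Benjamini-Hochberg, and a gene was called at an adjusted p under 0.05. The procedure was tested on simulated data. Counts and figures were produced with pandas 2.3.3 and matplotlib 3.10.9 under Python 3.11.15.

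All 9 members were named, with CAT and up to 3 genes of each other list that were called in the same direction against both lines in a clone, those with the largest change, and the 3 genes nearest to each of the 3 members with the widest range of group means. The members and lists were chosen with earlier results of these data known. Alternatives were the set of clusters tested, centring on array medians, another quantile normalization, weights for arrays, limma-trend, robust eBayes, fewer arrays, stricter limits, a replicate block and leaving out arrays. The number of arrays limits the precision, and p-values measure the spread between these samples, which are stated to be biological replicates without saying whether their cultures were separate.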

Additional observations from a re-analysis of the deposited data

Results flagged for a closer look

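NFE2L2 in PCDNA3 replicate 1 had 10.685, far above the other PCDNA3 arrays, the next of which was 10.21. SLC7A11 in PCDNA3 replicate 2 had 10.93, far above the other PCDNA3 arrays, and the call of SLC7A11 in G10 vs PCDNA3 was lost without it. Both gaps exceeded the critical value of Dixon's test at 95% for 4 arrays. Of 36 groups of 4 arrays tested, chance gives about 1.8 such gaps. TALDO1 changed differently in the clones, by -0.43 in G10 vs A7 (adjusted p = 0.00288, limma), which is the test of the difference between their changes against the same controls.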

How the results depend on the processing

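Over 12 kinds of alternative, 864 values of the 9 genes gave 798 on the same side of the threshold with the same direction, 41 that lost and 25 that gained a call, and 0 called values that changed sign. The count of genes called in G10 vs A375 (1) was 2 with only clusters of 1 symbol, only clusters above the olfactory level or array weights, and 0 with median centring, only the arrays compared or the replicate block. In G10 vs PCDNA3 (4) it was 6 with each of clusters of 1 symbol, clusters above the olfactory level, limma-trend and array weights, 5 with quantile normalization and 3 with only the arrays compared. In G10 vs the control average (4) it was 2 with median centring, in G10 vs A7 (1) it was 2 with array weights. In PCDNA3 vs A375 (0) it was 1 with clusters of 1 symbol, 3 with array weights and 2 with only the arrays compared. At an adjusted p of 0.001, with or without a log2 change of at least 1, it was 0 in every comparison. The other pathway genes called in A7 vs the average (11) were 18, 17, 18 and 22 with clusters of 1 symbol, clusters above the olfactory level, array weights and the arrays compared, and 0 at both stricter limits. In G10 vs the average (34) they were 54 with array weights and 12 and 4 at the stricter limits, and in G10 vs A7 (40) they were 15 and 6. Without G10 replicates 1 and 2, chosen after the data were seen, the genes called in G10 were 0 vs A375, PCDNA3 and the average and 3 vs A7. Without replicates 3 and 4 they were 4 vs A375 and 3 vs A7, and the other pathway genes vs the average were 58. Without A7 replicates 1 and 2 the genes called in A7 were 1 vs PCDNA3 and 0 vs the average, and the other pathway genes vs the average 2, and without A7 replicates 3 and 4 they were 2, 1 and 5. The causes of these shifts were not tested, beyond the stricter limits themselves.

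Leaving out 1 array at a time gave 0 to 0 genes in A7 vs A375, 3 to 3 in A7 vs PCDNA3, 0 to 2 in G10 vs A375, 3 to 5 in G10 vs PCDNA3, 1 to 3 and 0 to 6 in A7 and G10 vs the average, 1 to 2 in G10 vs A7 and 0 to 2 in PCDNA3 vs A375. The other pathway genes ranged from 5 to 14 in A7 and 29 to 37 in G10 vs the average and from 36 to 45 in G10 vs A7. HMOX1, GCLM and OSGIN1 vs PCDNA3 were called in all 16 such fits in both clones. Replicate numbers did not pair the arrays, with r from -0.16 to 0.23 over 24 pairs, 3 of them over 0.1, and 5 of 16 arrays closest to their own number. With the replicate block 0, 3, 0 and 4 genes were called in A7 vs A375, A7 vs PCDNA3, G10 vs A375 and G10 vs PCDNA3, and TALDO1 in G10 vs A375 had an adjusted p of 0.0666; vs the average, HMOX1 in G10 gained a call (adjusted p = 0.0354, limma) and OSGIN1 in G10 lost one (adjusted p = 0.0521).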
